A study of Mus musculus with 2 samples.

Results

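Of the 32285 genes counted in single-cell libraries of mouse uterus, 10 encode the CXC chemokines described here, and they were taken by gene symbol: Cxcl1, Cxcl2, Cxcl5, Cxcl9, Cxcl10, Cxcl12, Cxcl13, Cxcl14, Cxcl16 and Cxcl17. Each symbol matched 1 row of the count matrix. Their transcripts were followed across cell types in 2 libraries from whole uteri of female C57BL/6J mice aged 6 months, dissociated by a 5 hour collagenase digestion and captured in droplets with a kit that reads transcripts from the 3′ end. The library labelled control was a pool of 3 Prickle1 f/f mice, and the library labelled cKO was a pool of 3 Prickle1 f/f MiC mice. All mice therefore carried the floxed Prickle1 alleles, a gene of the planar cell polarity pathway. What MiC abbreviates, and in which cells it acts, is not stated, and the genotype entry of the labels gives wild-type in each case. Mice were pooled before sequencing, so each group is 1 library, the library and the group cannot be told apart, and no difference below has a replicate check. Intervals are 95%, exact, and cover counting error only.

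CXC chemokines are small secreted proteins that direct the migration of leukocytes and other cells through G protein-coupled receptors. A branch, which includes Cxcl1, Cxcl2 and Cxcl5, acts on Cxcr2 and draws neutrophils, and its genes are classic targets of NF-kappaB. Cxcl9 and Cxcl10 are induced by interferons and draw activated T and NK cells through Cxcr3, whereas Cxcl12 is made constitutively by stroma, binds Cxcr4 and is scavenged by Ackr3. In the uterus chemokines of both the stroma and the epithelium shape which leukocytes populate the tissue.

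After filtering, the libraries labelled control and cKO retained 3490 and 3586 cells, out of 45035801 and 34261441 unique molecular identifiers (UMIs), and 6 cell barcodes occurred in both. Cells were clustered without any CXC ligand or receptor gene and the clusters were named from marker genes. The 6 classes compared had at least 100 cells in each library, and were epithelium-like (1311 and 109 cells), fibroblast-like (849 and 1341), smooth muscle-like (316 and 683), T or NK cell-like (335 and 745), macrophage or monocyte-like (311 and 225) and dendritic cell-like (160 and 211). In each pair of values the library labelled control comes first. Median depths of these classes, in the same order, were 4371 and 4075, 9434 and 10095, 1892.5 and 2010, 4367 and 3698, 7697 and 5789, and 9926 and 8210 UMIs per cell. Clusters 0 and 7 of the epithelium-like cells (588 and 227 cells against 7 and 1) and cluster 23 of the fibroblast-like cells (17 against 222) came over 90% from 1 library, so most epithelium-like cells of the library labelled cKO lay in clusters 8 and 9. Immune or stress genes led some clusters, with Lcn2 first in cluster 7 and Cxcl5 and Ptx3 first in fibroblast-like cluster 2. Prickle1 counts did not fall under the cKO label, since it was counted 96 times (2.56 CPM, which scales UMIs to the total of the class) against 265 times (9.03 CPM) over all cells, and 14 against 51 times in smooth muscle-like cells, a ratio of 1.66 (0.905 to 3.25). The group names below are therefore those of the labels only. Erythroid markers also separated the libraries: the 5 on the list summed to 14.6 and 2238 CPM in T or NK cell-like, 5.16 and 1665 CPM in dendritic cell-like, 9.67 and 1931 CPM in macrophage or monocyte-like and 49.1 and 972 CPM in smooth muscle-like cells, with 1, 2, 2 and 1 of them at 0 in the library labelled control and none in the other. They summed to 336 and 239.8 CPM in fibroblast-like cells and to 92.1 and 3.71 CPM in epithelium-like cells, and their part in the chemokine values was not tested.

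Many CXC ligand genes lie close together on mouse chromosome 5, and the neighbouring pairs Cxcl1 and Cxcl2, and Cxcl9 and Cxcl10, lay on opposite sides of equality in macrophage or monocyte-like cells. Their upstream sequences are shown for that reason. Each run is the 250 bases before the annotated start, 5′ to 3′ on the gene's strand, from RefSeq on GRCm38.p6, and 7 of the 10 genes had an entry. The windows lie at chr5:90890995-90891244, plus strand for Cxcl1, chr5:90903649-90903898, plus strand for Cxcl2, chr5:92328080-92328329, minus strand for Cxcl9 and chr5:92348890-92349139, minus strand for Cxcl10. Capitals mark matches on either strand to an NF-kappaB-type motif (GGG, any 2 bases, then TTTCC) or to the core of an interferon-stimulated response element (ISRE-type: GAAA, any 2 bases, then GAAA).
Cxcl1: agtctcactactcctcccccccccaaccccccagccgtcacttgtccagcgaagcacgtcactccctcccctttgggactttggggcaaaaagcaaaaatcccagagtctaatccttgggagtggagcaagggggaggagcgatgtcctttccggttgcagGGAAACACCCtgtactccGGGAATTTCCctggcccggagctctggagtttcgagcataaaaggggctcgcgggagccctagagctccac
Cxcl2: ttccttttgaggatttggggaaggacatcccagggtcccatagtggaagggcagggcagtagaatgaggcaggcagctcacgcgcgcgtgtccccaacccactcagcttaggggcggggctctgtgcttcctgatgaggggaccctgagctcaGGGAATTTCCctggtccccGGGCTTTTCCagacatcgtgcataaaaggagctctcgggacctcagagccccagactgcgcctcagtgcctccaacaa
Cxcl9: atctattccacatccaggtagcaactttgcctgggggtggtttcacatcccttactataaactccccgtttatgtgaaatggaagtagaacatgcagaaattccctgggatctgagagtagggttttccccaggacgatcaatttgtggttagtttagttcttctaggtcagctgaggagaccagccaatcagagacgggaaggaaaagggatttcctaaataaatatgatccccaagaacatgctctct
Cxcl10: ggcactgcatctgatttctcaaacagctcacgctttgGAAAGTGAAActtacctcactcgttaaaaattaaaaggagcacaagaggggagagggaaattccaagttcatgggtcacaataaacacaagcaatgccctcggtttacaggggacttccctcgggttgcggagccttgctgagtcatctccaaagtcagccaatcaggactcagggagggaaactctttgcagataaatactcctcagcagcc
Both Cxcl1 and Cxcl2 held 2 NF-kappaB-type matches, which for Cxcl1 began 89 and 71 bases before the start and for Cxcl2 97 and 78 bases before it, with no overlap between matches. Of 32851 upstream windows of this length, 1.41% held that motif. The Cxcl10 window held 1 ISRE-type match, 213 bases before the start, a motif found in 2.98% of windows. Cxcl14 also held 1 ISRE-type match and 1 match to a GAS-type motif (TTC, any 3 bases, then GAA, in 7.02% of windows). The windows of Cxcl9, Cxcl12 and Cxcl13 held no match to these motifs, and entries for Cxcl5, Cxcl16 and Cxcl17 were not used here. The NF-kappaB-type pattern is strict, and near matches were not counted or marked in any window. The Cxcl10 window holds gggaaattcc and ggggacttcc, each 1 base different from the pattern, and the Cxcl9 window holds gggatttcc, 1 base shorter. The windows therefore do not divide these genes into NF-kappaB-type and ISRE-type ones. A match describes the letters of the window and is not a shown binding site.

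Several of the chemokines had characteristic source cells in both libraries, but not all. Cxcl14 had 42.2% and 2.28% of its UMIs in epithelium-like and 38.3% and 95.2% in fibroblast-like cells. Cxcl2 was mainly a transcript of macrophage or monocyte-like cells, which held 74.9% and 65.2% of its UMIs. Cxcl12 was a fibroblast transcript (87.2% and 88.5% of UMIs in fibroblast-like cells), and Cxcl17 an epithelial one (99.0% and 98.8% in epithelium-like cells). Cxcl1 and Cxcl5 were shared between fibroblast-like cells (59.6% and 60.9% for Cxcl1) and macrophage or monocyte-like cells (32.3% and 27.7%). Cxcl16 had many sources, with 47.9% and 2.30% of its UMIs in epithelium-like, 25.7% and 54.2% in fibroblast-like, 14.6% and 13.5% in macrophage or monocyte-like and 8.96% and 22.1% in dendritic cell-like cells. Shares of UMIs follow the number of cells captured, and the library labelled control held more epithelium-like cells, so shares in the epithelium cannot be compared between libraries.

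**Figure D1:**
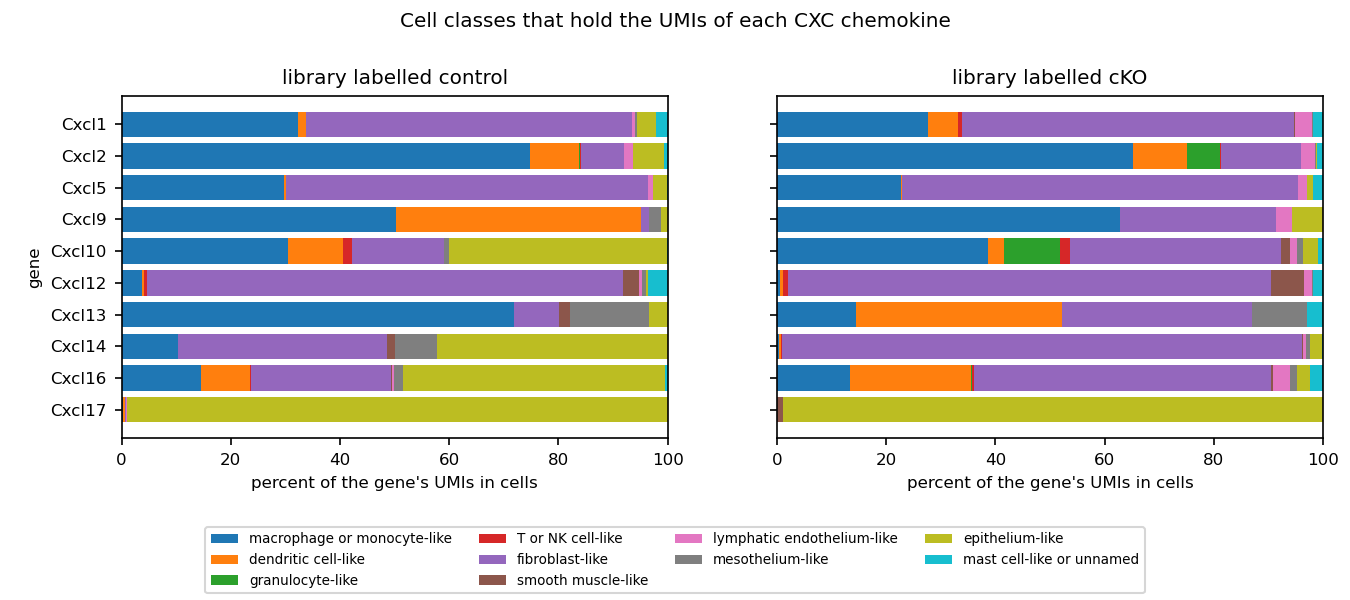
Percent of each CXC chemokine's UMIs (horizontal axis) found in each cell class, in the library labelled control (left) and the library labelled cKO (right). Cxcl12 lay mostly in fibroblast-like cells, Cxcl2 in macrophage or monocyte-like cells and Cxcl17 in epithelium-like cells in both, while the epithelial parts of Cxcl10 and Cxcl16 seen on the left are small on the right.

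Within classes, members with a mean level of at least 10 CPM were compared by a log2 ratio, cKO over control label, with 5 CPM added to each level. This left 35 of the 60 pairs of a member and a class. Among them 11 were at least 2-fold lower in the library labelled cKO, 6 at least 2-fold higher and 18 in between. Cxcl10 alone gave 5 of the 11 lower values and Cxcl1 gave 3 of the 6 higher ones. The same rule over all measured genes gives the background for each class. Macrophage or monocyte-like cells had 8 members measured, of which 4 were lower, where 2.21% of 7073 genes were, and 1 higher, where 1% were. Dendritic cell-like cells had 5 measured, 2 lower (background 3.52%) and 1 higher (2.97%). Both classes of phagocyte thus had the interferon-inducible ligands lower and Cxcl1 higher. The Cxcl1 values had limits, since 1 dendritic cell-like cell held 494 of the 802 UMIs under the cKO label. In macrophage or monocyte-like cells the Cxcl1 log2 ratio was 0.79, short of 2-fold, with cells thinned to 1000 UMIs. Fibroblast-like cells had 7 measured, 1 lower (0.679%) and 1 higher (1.47%). T or NK cell-like cells had 5 measured, 1 lower (1.33%) and 1 higher (0.922%). In epithelium-like cells, where few cells of the library labelled cKO made all ratios less precise, 3 of 7 were lower (7.33%) and 2 higher (12.1%). Over all cells together, which mixes classes of different numbers, 8 were measured, 2 lower (7.4%) and 2 higher (5.38%). Smooth muscle-like cells had 3 measured and none past 2-fold (1.72% lower and 3.23% higher over all genes). The median ratio over all genes was between 0.08 and 0.22 in every class, so the libraries were nearly centred on this scale.

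**Figure D2:**
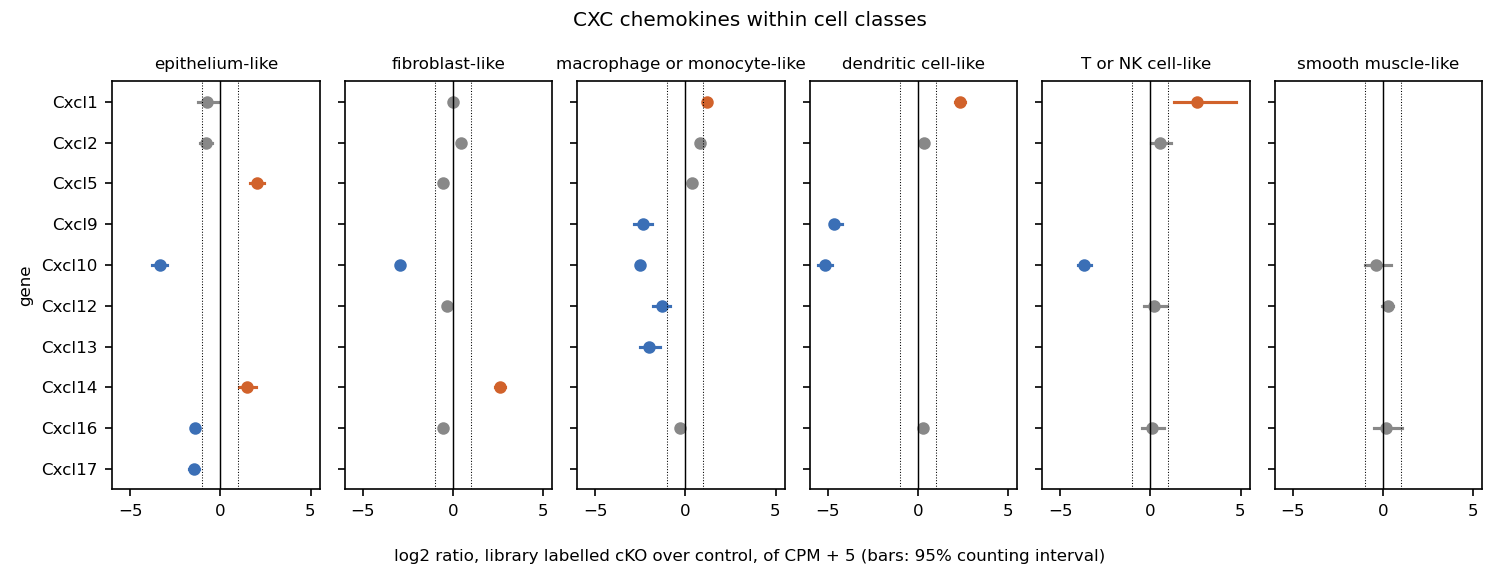
Log2 ratio of CPM + 5, cKO over control label (horizontal axis), for each CXC chemokine measured in 6 cell classes, with bars for the 95% counting interval and dotted lines at 2-fold. Points in blue are at least 2-fold lower, in orange at least 2-fold higher and in grey between, with Cxcl10 blue in 5 classes and grey in smooth muscle-like cells.

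Cxcl10 (ENSMUSG00000034855) was at least 2-fold lower under the cKO label in 5 of the 6 classes. In macrophage or monocyte-like cells, its highest named source in the library labelled control, it stood at 1701 and 291 CPM (4575 and 481 UMIs), a log2 ratio of -2.53. In dendritic cell-like cells the levels were 853 and 19.0 CPM (1489 and 37 UMIs), a log2 ratio of -5.16. Dendritic cell-like cells thus ranked next to macrophage or monocyte-like cells under the control label. Under the cKO label their level was below those of epithelium-like cells, whose interval overlapped theirs, and fibroblast-like cells. These levels under the cKO label all lay below the 34.3 CPM of that library's empty droplets, and the part of free RNA in their order was not tested. Epithelium-like cells had 316 and 26.0 CPM (5967 and 35 UMIs), a log2 ratio of -3.37, and fibroblast-like cells 262 and 29.9 CPM (2509 and 482 UMIs), a log2 ratio of -2.94. T or NK cell-like cells had 155 and 7.55 CPM (255 and 24 UMIs), a log2 ratio of -3.68. Smooth muscle-like cells made little of it in either library (13 and 20 UMIs, 13.6 and 9.52 CPM), and the interval of their ratio, 0.332 to 1.53, included 1. In the library labelled control neighbouring classes from macrophage or monocyte-like to fibroblast-like did not overlap in their intervals, whereas in the library labelled cKO neighbours from fibroblast-like down to dendritic cell-like overlapped.

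The lower Cxcl10 level was also seen within clusters. Of 15 clusters with at least 20 cells in each library in which it was measured, 13 had a lower level in the library labelled cKO and 10 were at least 2-fold lower, with a median log2 ratio of -2.30. The exceptions were cluster 14 (0 and 9 UMIs), left unnamed because its B cell markers summed to 1675 and 809 CPM and its plasma cell markers to 269 and 39920 CPM, and fibroblast-like cluster 11 (52 and 59 UMIs, a log2 ratio of 0.50). The share of all genes past 2-fold was not computed within single clusters, so these counts of clusters have no background. In the epithelium-like clusters 8 and 9, present in both libraries, the log2 ratios were -2.66 and -2.42, and over the class without clusters drawn over 90% from 1 library the value was -3.16. The corresponding value in fibroblast-like cells was -2.15. Fewer cells also carried the transcript. A Cxcl10 UMI was found in 35.0% and 3.32% of dendritic cell-like cells and in 27.8% and 11.0% of epithelium-like cells, against 2.85% and 2.20% in smooth muscle-like cells, a class that should make little of it, whose cells were shallower. With cells thinned to 1000 UMIs each, these shares were 23.1% and 0.948%, 14.0% and 2.75%, and 1.27% and 0.878%. Empty droplets, which sample free RNA, held Cxcl10 at 211 and 34.3 CPM, so the free RNA was lower in the library labelled cKO as well. The T or NK cell-like level in the library labelled control was below that of its empty droplets, and the part of free RNA in it was not tested beyond subtracting an assumed 10% of free RNA, after which the log2 ratio was -4.00.

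**Figure D3:**
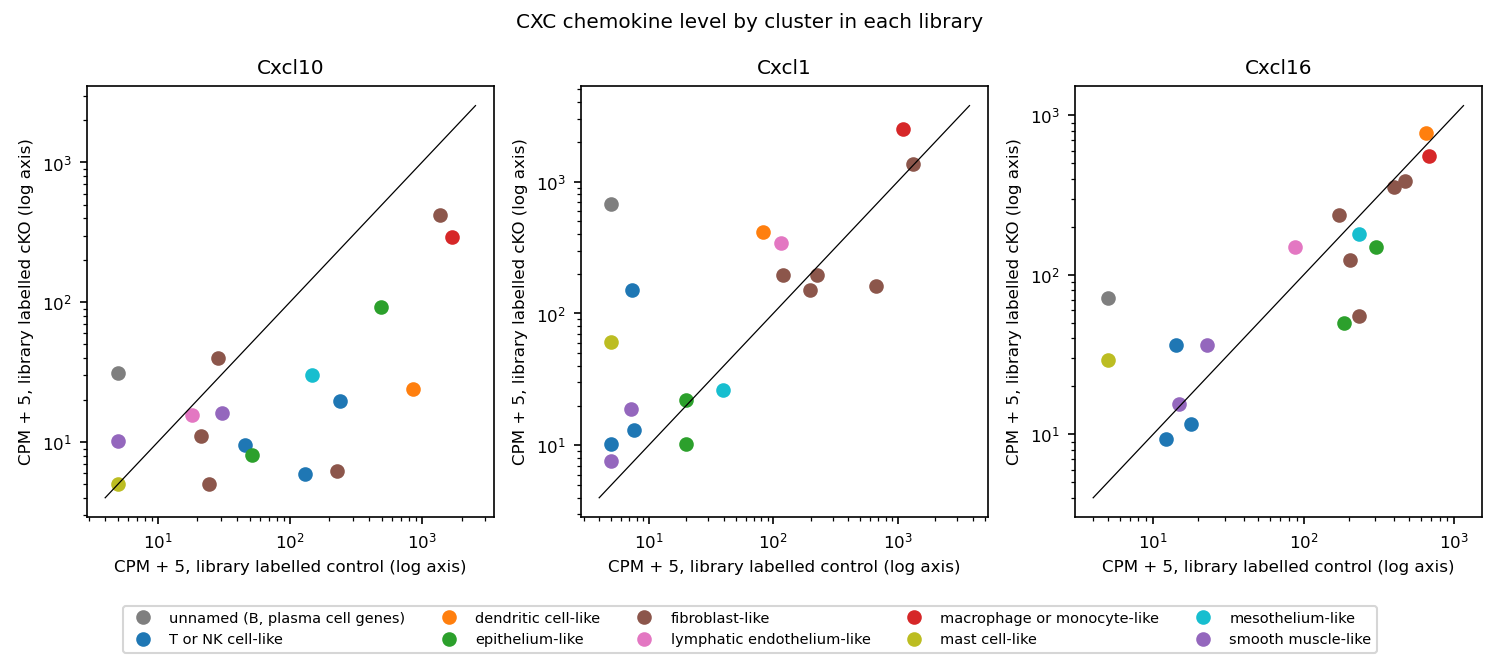
Level in the library labelled cKO (vertical axis) against the library labelled control (horizontal axis), as CPM + 5 on log axes, of Cxcl10, Cxcl1 and Cxcl16, with 1 point for each cluster of at least 20 cells in both libraries and a line of equal level. Cxcl10 points lie mostly below the line, while Cxcl1 and Cxcl16 points scatter on both sides of it.

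Cxcl9 (ENSMUSG00000029417), the other Cxcr3 ligand measured, had fewer transcripts and 2 main sources. In dendritic cell-like cells it was counted 214 and 0 times (123 and 0 CPM). In the library labelled cKO a floor of 3 UMIs is worth 1.54 CPM, so it was at least 79.7-fold lower against that floor, and the exact interval of the ratio begins at 64.3-fold. In macrophage or monocyte-like cells it was counted 239 and 22 times (88.9 and 13.3 CPM), a log2 ratio of -2.36. These UMIs lay in few cells. Only 21 of 160 dendritic cell-like cells and 22 of 311 macrophage or monocyte-like cells of the library labelled control had a Cxcl9 UMI, and 0 of 211 and 3 of 225 in the library labelled cKO. These shares were 13.1% and 0%, and 7.07% and 1.33%, and after thinning 5.63% and 0%, and 3.86% and 0.444%. Neither T or NK cell-like nor smooth muscle-like cells had any Cxcl9 UMI in either library. Without the 10 cells with most Cxcl9 UMIs in each library, an alternative chosen after seeing the data, the mean level was under 10 CPM in both classes. In the library labelled control a Cxcl10 UMI was present in 76.2% of the dendritic cell-like cells with a Cxcl9 UMI and in 28.8% of those without one, at median depths of 9847 and 10005 UMIs.

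Other genes induced by interferons were lower in the same classes. The type I interferon list held 18 genes, 16 of them in the count matrix, and all 16 measured were at least 2-fold lower in both epithelium-like and dendritic cell-like cells (median log2 ratios of -2.98 and -2.81, against 0.22 and 0.20 over all genes). In T or NK cell-like cells all 14 measured were lower, in fibroblast-like cells all 9, in macrophage or monocyte-like cells 12 of 16 and in smooth muscle-like cells 1 of 3. Rsad2, an antiviral enzyme, was among the most abundant of them, with 5003 and 1138 CPM in macrophage or monocyte-like cells and 419 and 26.0 CPM in epithelium-like cells. Isg15, a ubiquitin-like modifier, stood at 683 and 46.0 CPM in epithelium-like cells. The widest gaps were those of Ifit3 in epithelium-like cells (a log2 ratio of -4.79) and Ifit2 in dendritic cell-like cells (-5.62), both RNA-binding antiviral proteins. The list induced by interferon gamma was lower for 12 of 15 genes in macrophage or monocyte-like cells, 11 of 16 in dendritic cell-like, 8 of 12 in epithelium-like, 8 of 15 in T or NK cell-like, 3 of 6 in fibroblast-like and 1 of 6 in smooth muscle-like cells. Over all measured genes, the background for both lists, 2.21%, 3.52%, 7.33%, 1.33%, 0.679% and 1.72% were lower in these classes, in that order. In smooth muscle-like cells each count is a single gene. Socs1, a feedback inhibitor of interferon signalling, stood at 36.6 and 37.1 CPM in epithelium-like cells. Both lists were chosen with earlier results of these data known. Their epithelium-like values include clusters 0 and 7, which came over 90% from the library labelled control, and were not recomputed without them.

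In the library labelled control, cells that carried Cxcl10 also carried more of the type I interferon list in each of the 5 classes examined. In macrophage or monocyte-like cells of the library labelled control the list summed to 27349 CPM in the 98 cells with a Cxcl10 UMI and 2879 CPM in the 213 without, at median depths of 8889.5 and 7583 UMIs. In fibroblast-like cells the sums were 2719 and 114 CPM (131 and 718 cells, depths of 9857 and 9343.5). The contrast was also present in macrophage or monocyte-like cells of the library labelled cKO, at 14613 and 1103 CPM in 28 and 197 cells. It was small in fibroblast-like cells of that library, at 65.3 and 35.4 CPM, and in its epithelium-like cells it went the other way, at 178 CPM in 12 cells with a Cxcl10 UMI and 299.7 CPM in 97 without. The interferon genes themselves were sparse. Ifnb1, the type I interferon beta, was counted 993 times in 91 of 1311 epithelium-like cells under the control label and 0 times in the 109 under the cKO label, and 86 and 2 times in macrophage or monocyte-like cells. Those 1311 cells include clusters 0 and 7, which were nearly absent under the cKO label. Ifng, the type II interferon, was counted 18 and 35 times in T or NK cell-like cells (11.0 CPM in both libraries).

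Among the ligands that draw neutrophils, Cxcl1 (ENSMUSG00000029380) was higher under the cKO label in 3 classes. In macrophage or monocyte-like cells it stood at 1089 CPM (2930 UMIs) and 2514 CPM (4161 UMIs), a log2 ratio of 1.20. The share of these cells with a UMI was 35.7% and 45.3%, and 26.7% and 36.0% after thinning, against 0.896% and 2.55% in T or NK cell-like cells (0.299% and 1.07% thinned). On thinned counts, which weight each cell equally, the log2 ratio was 0.79, short of 2-fold. Free RNA differed in the same direction, with Cxcl1 at 104 and 245 CPM in empty droplets. The other higher values drew on few cells. In dendritic cell-like cells Cxcl1 stood at 77.9 and 411 CPM, a log2 ratio of 2.33, and 1 cell of the library labelled cKO held 494 of the 802 UMIs, while 82 and 308 UMIs remained without the highest cell of each library. In T or NK cell-like cells 1 cell held 92 of 114 UMIs, against 3 UMIs in all under the control label, a log2 ratio of 2.58 (0.99 without the cells of highest Scrublet doublet score). Fibroblast-like cells, which held most Cxcl1 UMIs, had the same level in both libraries, 565 CPM (5403 UMIs) and 566 CPM (9137 UMIs), a ratio of 1.00 (0.970 to 1.04). Cluster 2 (142 and 393 cells) held 3881 and 7509 of those UMIs and was itself level, at 1330 and 1348 CPM, a log2 ratio of 0.02. Smaller sources had opposite values, since fibroblast-like cluster 16 had a log2 ratio of -2.05 (661 and 155 CPM) and cluster 11 one of 0.69 (116 and 189 CPM). Without cluster 23, which came over 90% from the library labelled cKO, the class log2 ratio was 0.35.

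Markers of macrophages moved with Cxcl1 in the dendritic cell-like class. The 9 macrophage or monocyte markers summed to 293 CPM in dendritic cell-like cells of the library labelled control and 500.3 CPM in those of the library labelled cKO, with none of them at 0 in either. In the 18 dendritic cell-like cells of the library labelled cKO with a Cxcl1 UMI the sum was 2990 CPM, against 141 CPM in the 193 without. Their part in the Cxcl1 value was not tested. Without the 10 cells with most Cxcl1 UMIs in each library the mean level in this class was under 10 CPM.

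Cxcl2 (ENSMUSG00000058427), a close relative of Cxcl1, was not past 2-fold in any of the 5 classes in which it was measured, a result that depended on the processing outside macrophage or monocyte-like and dendritic cell-like cells. Among T or NK cell-like cells its log2 ratio of 0.54 became -1.59 at a clustering resolution of 0.5, -2.13 with cells of at least 500 UMIs and 300 genes, and 1.03 with thinned cells. Its level in macrophage or monocyte-like cells was 8308 CPM (22345 UMIs) and 14628 CPM (24214 UMIs), a ratio of 1.76 (1.73 to 1.79). A UMI was found in 81.7% and 90.7% of these cells, against 3.58% and 5.23% of T or NK cell-like cells, and the thinned shares were 74.3% and 82.2% against 0.597% and 2.15%. Granulocyte-like cells, with 5 and 30 cells too few to compare, had 6340 and 30101.5 CPM, and held 5.98% of all Cxcl2 UMIs of the library labelled cKO. In the library labelled cKO that was the highest level of any class, and the class below it was macrophage or monocyte-like. Dendritic cell-like cells had 1510 and 1896 CPM, and fibroblast-like cells 247 and 334 CPM, a log2 ratio of 0.43 (1.08 without the 10 highest cells of each library). In epithelium-like cells the level was lower in the library labelled cKO, 89.4 and 49.7 CPM, a log2 ratio of -0.79, but the direction turned to 0.44 with thinned cells. That value was -1.13 with median of ratios scaling, -2.03 without the 10 highest cells and -3.66 after subtracting free RNA. Nearly every macrophage or monocyte-like cell with Cxcl1 also had Cxcl2, 110 of 111 in the library labelled control and 100 of 102 in the library labelled cKO.

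Cxcl5 (ENSMUSG00000029371) was found in fewer fibroblast-like and macrophage or monocyte-like cells than Cxcl1. Fibroblast-like cells had 437 and 299 CPM (4184 and 4825 UMIs), a log2 ratio of -0.54. Their cluster 2 (142 and 393 cells) held 3910 and 4056 of the UMIs. Its level was 1340 and 728 CPM, a log2 ratio of -0.88, with a UMI in 32.4% and 16.5% of its cells. Clusters 5 (214 and 585 UMIs) and 6 (38 and 74 UMIs) had log2 ratios of 1.19 and 3.20. The class value thus covered opposite values and a different mix of clusters. A UMI was found in 8.60% and 8.05% of fibroblast-like cells (5.42% and 5.07% thinned), against 0.299% and 0.268% of T or NK cell-like cells, and 9 and 8 cells held 50% of the transcripts. Macrophage or monocyte-like cells had 697 and 911 CPM in 36 and 24 positive cells, and without the 10 highest cells of each library the log2 ratio turned from 0.38 to -2.71. The 8 fibroblast markers summed to 2252 and 1784 CPM in those positive cells and to 597 and 650.4 CPM in the negative ones, with 1 of them at 0 in the library labelled control, and their part in the Cxcl5 level was not tested. In epithelium-like cells Cxcl5 stood at 8.63 and 51.2 CPM, a log2 ratio of 2.04. A single cell held 39 of the 69 UMIs in the library labelled cKO, and the log2 ratio over clusters 8 and 9 alone was 0.98.

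**Figure D4:**
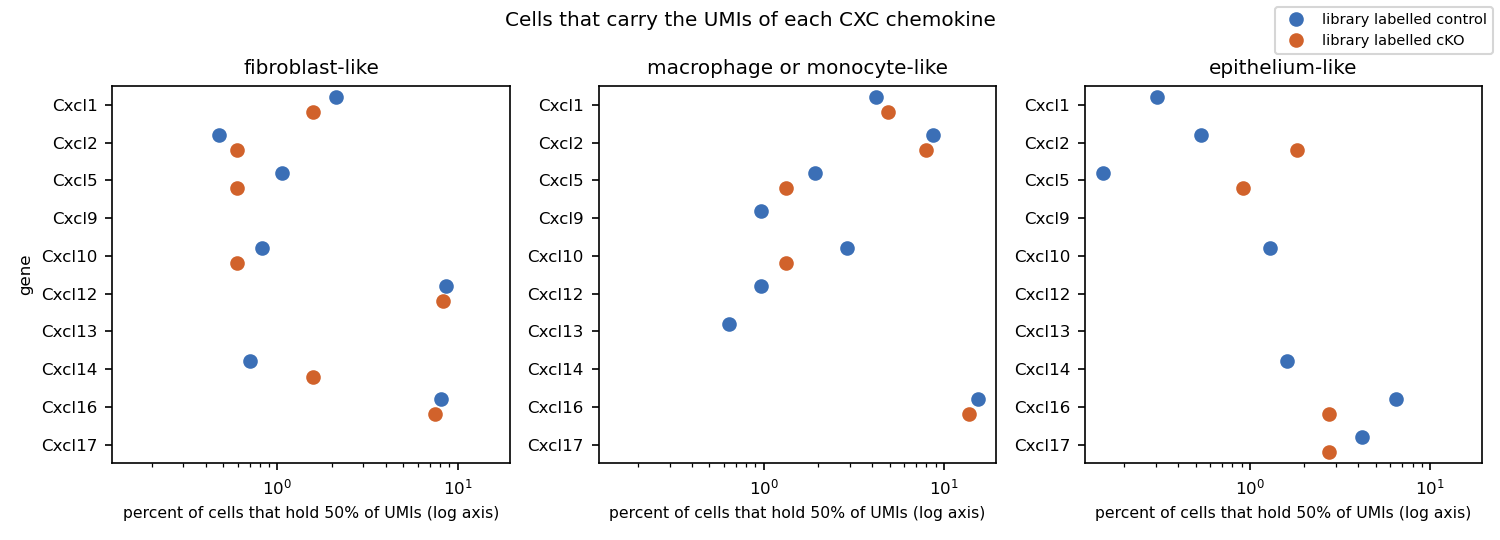
Percent of the cells of a class that hold 50% of each chemokine's UMIs (horizontal log axis) in fibroblast-like, macrophage or monocyte-like and epithelium-like cells, for genes with at least 50 UMIs there. Cxcl12 and Cxcl16 are spread over more fibroblast-like cells (about 7.46% to 8.60%) than Cxcl1, Cxcl2, Cxcl5, Cxcl10 and Cxcl14 (at most 2.12%).

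Cxcl12 (ENSMUSG00000061353), the stromal ligand of Cxcr4, was together with Cxcl16 the most evenly spread member in fibroblast-like cells. Fibroblast-like cells had 322 CPM (3085 UMIs) and 254 CPM (4095 UMIs), a log2 ratio of -0.34, with a UMI in 54.9% and 55.5% of cells. T or NK cell-like cells, which should lack it, had a UMI in 0.896% and 1.34% of cells, and the thinned shares were 21.1% and 20.6% against 0.597% and 0.403%. Its UMIs were spread over many cells, since 73 and 111 fibroblast-like cells were needed to hold 50% of them. Smooth muscle-like cells were the named source of next highest level, at 111 and 134 CPM (106 and 281 UMIs), with a ratio of 1.21 whose interval of 0.962 to 1.52 included 1. Among the fibroblast-like clusters compared its level was highest in cluster 16, at 616 and 804 CPM, and lowest in cluster 6, at 71.7 and 58.1 CPM. In macrophage or monocyte-like cells Cxcl12 was counted 133 and 28 times, a log2 ratio of -1.31. The 34 such cells with a UMI in the library labelled control carried the 8 fibroblast markers at 3638 CPM, against 147 CPM in the cells without (1 of the 8 at 0 in each), and the part of fibroblast RNA in that value was not tested. Without the cells of highest doublet score the log2 ratio there was -0.37.

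Cxcl13 (ENSMUSG00000023078), which draws B cells through Cxcr5, was scarce, with 146 and 69 UMIs over all cells. It passed the minimum level only in macrophage or monocyte-like cells, where 6 cells held 105 UMIs under the control label and 4 cells held 10 under the cKO label. With so few cells the log2 ratio of -2.00 describes single cells rather than the class, and it was 0.00 without the 10 highest cells of each library. In dendritic cell-like cells 1 cell of the library labelled cKO held all 26 UMIs. Mesothelium-like cells, with 82 and 31 cells too few to compare, had 22.4 and 12.5 CPM.

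Cxcl14 (ENSMUSG00000021508), a chemokine of epithelia and stroma, was higher under the cKO label in the 2 classes where it was measured. Fibroblast-like cells had 11.3 CPM (108 UMIs) and 93.4 CPM (1506 UMIs), a log2 ratio of 2.59. Of those 1506 UMIs, 1202 came from cluster 23 (17 and 222 cells), which was led by Dio2, Aldh1a2 and Col6a4. Without that cluster the log2 ratio was 1.10, still past 2-fold. A UMI was found in 3.89% and 15.3% of fibroblast-like cells, and in 0.824% and 4.70% after thinning. Cluster 16, present in both libraries, had 13.9 and 187 CPM (11 and 165 UMIs), a log2 ratio of 3.35, and cluster 2 had 18.5 and 17.4 CPM, so fibroblast-like cells were not uniform. In epithelium-like cells Cxcl14 was counted 119 and 36 times (6.30 and 26.7 CPM), a log2 ratio of 1.49. The 36 UMIs lay in 15 cells. Without the 10 highest cells of each library the log2 ratio was 0.20 and the mean level was under 10 CPM. Cells with a UMI made up 5.87% and 13.8% of that class, 0.534% and 1.83% thinned, and the log2 ratio over clusters 8 and 9 alone was 0.83. The T or NK cell-like background was 0 of 335 cells, where the floor of 3 UMIs is worth 1.83 CPM and the exact upper limit is 2.25 CPM, and 2 of 745 cells.

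Cxcl16 (ENSMUSG00000018920), a transmembrane chemokine that is shed and binds Cxcr6, was found in more dendritic cell-like cells than any other member. Dendritic cell-like cells had 642 CPM (1120 UMIs) and 768 CPM (1499 UMIs), with a UMI in 91.9% and 92.9% of cells and a ratio of 1.20 (1.11 to 1.30). Macrophage or monocyte-like cells had 680 and 553 CPM, with a UMI in 80.1% and 75.6% of cells. Smooth muscle-like cells, the background here, had a UMI in 2.85% and 3.81% of cells, and thinned shares were 49.4% and 59.2%, 42.8% and 42.7%, and 0.949% and 2.05% in these 3 classes. The class order in the library labelled control put macrophage or monocyte-like and dendritic cell-like cells first with overlapping intervals, while in the library labelled cKO dendritic cell-like cells stood above. Fibroblast-like cells had 335 and 228 CPM, a log2 ratio of -0.54, which was -0.17 without cluster 23. In epithelium-like cells Cxcl16 was at least 2-fold lower, with 317 CPM (5989 UMIs) and 116 CPM (156 UMIs), a log2 ratio of -1.41. Clusters 8 and 9 each showed this (-1.01 and -1.90), and together they gave -0.99, short of 2-fold. Empty droplets held Cxcl16 at 188 and 108 CPM.

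Cxcl17 (ENSMUSG00000060188), a chemokine of mucosal epithelia, was almost exclusive to epithelium-like cells. These had 183 and 63.1 CPM (3459 and 85 UMIs), a log2 ratio of -1.47 and a ratio of 0.345 (0.275 to 0.427). The clusters present in both libraries had ratios of the same sign, -2.47 in cluster 8 and -1.48 in cluster 9, and together -2.17. A UMI was found in 42.0% and 21.1% of epithelium-like cells, against 0.896% and 0% of T or NK cell-like cells, and the thinned shares were 12.4% and 4.59% against 0% and 0%. Over all cells the level was 31.8-fold lower in the library labelled cKO (93.1 and 2.93 CPM), a value that also carries the smaller number of epithelium-like cells captured. Dendritic cell-like cells had 14 and 0 Cxcl17 UMIs, and the 8 epithelium markers in them summed to 891 and 186 CPM with none at 0. Their part in those UMIs was not tested.

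**Figure D5:**
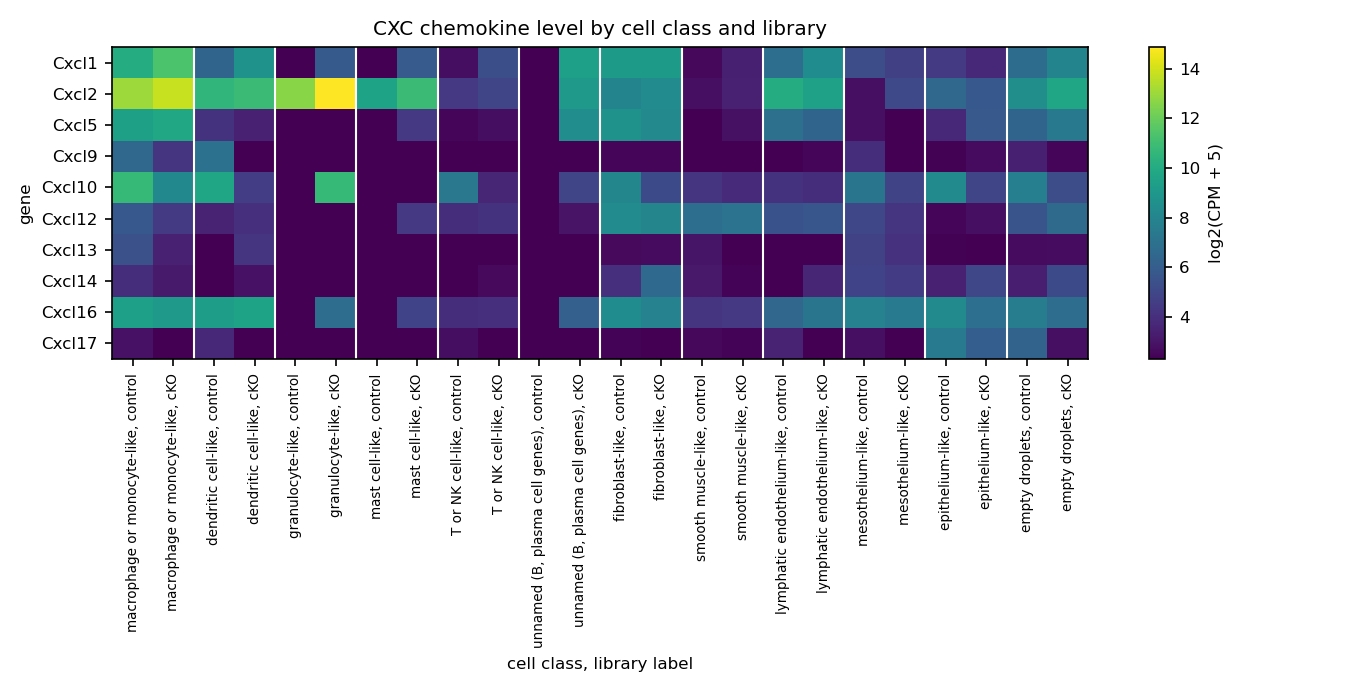
Level of each CXC chemokine as log2(CPM + 5) (colour) by cell class and library, with the library labelled control to the left within each class and the empty droplets last. Cxcl2 is brightest in macrophage or monocyte-like and granulocyte-like cells, Cxcl12 in fibroblast-like and smooth muscle-like cells and Cxcl17 in epithelium-like cells, and Cxcl10 is darker on the right in most classes.

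The receptors of these ligands were counted mainly in leukocytes. Cxcr3, the receptor of Cxcl9 and Cxcl10, was found in T or NK cell-like cells at 57.3 and 36.5 CPM (94 and 116 UMIs), a ratio of 0.638 (0.482 to 0.846). Cxcr6, the receptor of Cxcl16, stood at 490 and 792 CPM in the same class. Cluster 10, with Cxcr6 among its leading genes, gave 98 and 296 of the 335 and 745 cells of that class. The part of this mix of clusters in the Cxcr3 and Cxcr6 values was not tested. Cxcr6 was at least 2-fold higher in dendritic cell-like cells, at 7.45 and 43.1 CPM (13 and 84 UMIs). The 9 T or NK cell markers summed to 17.8 and 105 CPM in that class, with 1 at 0 in each library, and their part in the Cxcr6 value was not tested. Cxcr4, the receptor of Cxcl12, was widespread among leukocytes, at 470 and 621 CPM in T or NK cell-like, 369 and 402 CPM in macrophage or monocyte-like and 381 and 604 CPM in dendritic cell-like cells. Cxcr2, the receptor of Cxcl1, Cxcl2 and Cxcl5, was counted 13 and 9 times in granulocyte-like cells, of which there were 5 and 30. Ackr3, a scavenger of Cxcl12, was instead a stromal transcript, at 88.6 and 166 CPM in fibroblast-like cells, and at 22.2 and 2.97 CPM in epithelium-like cells, where it was at least 2-fold lower. That epithelium-like value includes clusters 0 and 7, which were nearly absent under the cKO label. Of the 9 receptor genes, 4 were measured in T or NK cell-like cells and none was past 2-fold there.

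The NF-kappaB list holds 16 genes that share inducers with Cxcl1 and Cxcl2. In macrophage or monocyte-like cells 2 of 16 measured were at least 2-fold higher under the cKO label (1% of all genes) and none lower, with Tnf at 209 and 707 CPM. Ptgs2, which makes prostaglandins, was among the most abundant there at 2410 and 3080 CPM. In fibroblast-like cells 3 of 14 were higher (1.47% of all genes) and none lower, with the cytokine Il6 at 174 and 450 CPM and the monocyte attractant Ccl2 at 1946 and 2128 CPM. Dendritic cell-like cells had 2 of 14 higher (2.97%) and none lower, and T or NK cell-like cells 3 of 12 higher (0.922%) and 1 lower (1.33%). Epithelium-like cells had 0 of 10 higher and 3 lower (7.33%), with Tnfaip3, an inhibitor of the pathway, at 260 and 21.5 CPM. The median of the list was 0.34 in macrophage or monocyte-like, 0.13 in fibroblast-like and -0.94 in epithelium-like cells, where the medians over all genes were 0.08, 0.09 and 0.22. In smooth muscle-like cells 7 were measured and none was past 2-fold.

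Genes whose levels were most like those of each member were sought among 7139 genes outside the family, over 15 sums of at least 50 cells of 1 class and library, by the Pearson correlation of log2(CPM + 5). These sums share libraries and depth, so r is a description only. For Cxcl10 the closest were Ifit3 (r of 0.95), Ifit1 (0.94) and Ifit3b (0.93), and for Cxcl9 they were Phf11a (0.88), Fcgr1 (0.86) and Ifit2 (0.84). Cxcl12 was closest to the stromal genes Cped1 (0.97), Emilin1 (0.96) and Plpp3 (0.96), and Cxcl17 to the epithelial genes Fcgbp (0.996), BC048679 (0.995) and Rhbdl2 (0.995). Outside epithelium-like cells Cxcl17 was at most 8.02 CPM, so its r mainly separates epithelium-like sums from the others. Cxcl1 was closest to Canx (0.93), Vcam1 and Srxn1, Cxcl2 to Srxn1 (0.94), Riok3 and Slc7a11, and Cxcl5 to Lamp1 (0.90), Vcam1 and Cmklr1. Cxcl14 was closest to Wnt5a (0.87), Col18a1 and Cpq, Cxcl16 to Homer3 (0.92), Ctsh and Gda, and Cxcl13 to C4b (0.79), Gm4951 and Hacd4. Within the family, the highest values were 0.83 for Cxcl1 with Cxcl5 and with Cxcl2, and 0.75 for Cxcl9 with Cxcl10.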

How the data were processed

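Both libraries were droplet single-cell RNA-seq of whole mouse uterus. The authors deposited unfiltered UMI counts, and the software named is Cell Ranger 4 per the file headers; the submitters' processing notes name Cell Ranger 6.1.1 and mm10. Which of these versions made the counts is not given in the sources used here. The members, gene lists and markers were chosen with earlier results of these data known.

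Cells were barcodes with at least 1000 UMIs, 500 genes and at most 20% mitochondrial UMIs (median depth 4953 and 4903 UMIs). They were clustered together in scanpy 1.11.5 (Python 3.11.15, anndata 0.12.19, igraph 0.11.9; 30 components, 15 neighbours, Leiden resolution 1) on 1983 variable genes without CXC ligands and receptors. A cluster was named from at least 3 of its markers, each with a UMI in at least 25% of its cells and at 2 times the median cluster. Epithelium and mesothelium were treated as related after seeing the data, because Krt8 was among the leading genes of the mesothelium-like cluster. Cluster 19 stayed unnamed as possible doublets, and cluster 14, whose B cell and plasma cell markers differ between the libraries, was left unnamed after seeing the data. Scrublet's own threshold marked 4 cells (0.0565%), so it did not work and doublets were kept. An alternative removed the 200 cells of highest score.

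UMIs were summed per class and library and scaled to CPM by the class total. A member was measured at a mean of at least 10 CPM. With 1 library per group no test was made and no p-value is given; intervals (scipy 1.17.1) are exact Poisson for levels, Clopper-Pearson for shares and conditional for ratios. Because UMIs come from transcript ends, no length scaling was made. Named genes were the members and Prickle1, receptors and other CXC ligands, the 3 genes of closest profile, and of each list and class described the 2 most abundant genes and the widest differences. The scripts were tested on simulated data. Alternatives were other clusterings, pseudocounts, scaling, thinning to 1000 UMIs, subtraction of free RNA, cell and doublet filters, and folds. A gene that the rule would name is not reported here.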

Additional observations from a re-analysis of the deposited data

Results flagged for a closer look

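For 4 members the ratio of the libraries had opposite signs in different cell classes, with counting intervals on both sides of equality. For Cxcl1 the T or NK cell-like log2 ratio was 2.58 and the epithelium-like one -0.72, 3.30 apart. That contrast is not stable: the epithelium-like value was 1.15 with cells thinned to 1000 UMIs, and the T or NK cell-like one, of whose 114 UMIs 1 cell held 92, was -0.61 with cells of at least 500 UMIs. Cxcl5 had 2.04 in epithelium-like cells and -0.54 in fibroblast-like cells, 2.59 apart. The epithelium-like value was 0.98 without clusters drawn over 90% from 1 library. Without the 10 highest cells of each library it was 0.22, at a mean level under 10 CPM. The fibroblast-like value was -0.07 with thinned cells. Cxcl16 had 0.26 in dendritic cell-like cells and -1.41 in epithelium-like cells, 1.67 apart, and Cxcl2 had 0.82 in macrophage or monocyte-like cells and -0.79 in epithelium-like cells, 1.60 apart, but the latter was 0.44 with thinned cells. With 1 library per group, none of these differences was tested.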

How the results depend on the processing

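The counts of members at least 2-fold lower (11) and higher (6) were recomputed under 14 alternatives and ranged from 9 to 13 lower and 3 to 7 higher. The 9 lower and 3 higher values arose without the 10 cells with most UMIs of the member in each class and library. That alternative was chosen after seeing the data. It kept only 7 of the 11 lower and 2 of the 6 higher values, and the rest of its 9 and 3 were newly past 2-fold. Of 420 single values under 12 alternatives, 305 stayed within the counting interval of the main value, 114 moved outside it, and 1 of those past 2-fold changed sign: Cxcl1 in T or NK cell-like cells, -0.61 among cells of at least 500 UMIs and 300 genes, against 2.58; the cause was not tested. The 5 lower Cxcl10 values stayed past 2-fold in every alternative, between -6.29 and -1.91. No paired analysis was possible because each group is 1 pooled library and no result comes from a test. Low counts left Cxcl13 and Cxcl17 unmeasured in 5 of 6 classes and Cxcl9 and Cxcl14 in 4, and pooling hides variation between mice.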

Other observations

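Other CXC ligands had sources of their own. Cxcl3, a relative of Cxcl2, was mainly a transcript of macrophage or monocyte-like cells, at 2339 and 2800 CPM in the libraries labelled control and cKO, and stood at 288 and 635 CPM in dendritic cell-like cells. Pf4, made by platelets and by some macrophages, stood at 2489 and 1453 CPM in macrophage or monocyte-like cells. In epithelium-like cells Ppbp stood at 13.3 and 91.3 CPM (251 and 123 UMIs, a ratio of 6.87, 5.49 to 8.56), and Cxcl15 was counted 2 and 55 times. Those 55 UMIs lay in 13 of 109 cells. The epithelium-like values of Ppbp and Cxcl15 include clusters 0 and 7, which were nearly absent under the cKO label. Ackr2, a scavenging receptor for inflammatory CC chemokines, was counted 44 and 16 times in lymphatic endothelium-like cells, in 12 of 31 and 11 of 103 cells. Among the 29 cells of unnamed cluster 14 in the library labelled cKO, a single cell held 228 of 229 Cxcl1 UMIs.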
